A study of Mus musculus with 9 samples.

Results

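V9 was one of 10 clusters of visceral motor neurons (MNs), named V1 to V10, in a single-nucleus RNA sequencing survey of cholinergic neurons in the mouse spinal cord. Its members were the nuclei that the authors' cell annotation assigned to V9, 247 of 16042 cholinergic nuclei (1.54%) and of 5613 visceral MN nuclei (4.40%). The tissue came from 12 mice aged 8 weeks, of the strain Chat-IRES-Cre::Sun1-sfGFP and the genotype Chat-iCre:+/wt; SUN-SfGFP:+/wt, in 3 pools of 4 animals. Replicate 1 mixed the sexes (2 males, 2 females), replicate 2 held males and replicate 3 females. Cervical, thoracic and lumbar/sacral cord of each pool gave 1 library apiece, 9 in all. All animals carried the same alleles and the labels name no treatment, so the cord regions were the groups compared. Because Cre was expressed from *Chat* and marked the nuclear envelope with GFP, the sort took the nuclei of cells in which *Chat* had been active. The pool was the unit of replication, and sex and pool cannot be told apart.

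Visceral MNs, also called preganglionic autonomic MNs, are the central output of the sympathetic and parasympathetic systems. They lie in the lateral part of the cord and send axons to ganglia outside it, where they release acetylcholine onto the neurons that act on the heart, gut, glands, vessels and bladder. Many of them make nitric oxide through *Nos1*, and they differ from skeletal MNs, which contact muscle directly.

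V9 nuclei carried the visceral class marker *Zeb2*, had less of the visceral markers *Fbn2* and *Fign* than other visceral MNs, and largely lacked the markers of skeletal MNs. *Zeb2*, a zinc finger transcription factor (chr2:44983632-45117395, GRCm38), was measured at 608, 446 and 841 CPM in the cervical and 556, 479 and 404 CPM in the thoracic libraries, where CPM is corrected counts per 1000000 in the summed V9 nuclei of a library and libraries are given in the order of replicates 1, 2 and 3. These levels were close to those of the other visceral MNs (522, 412 and 566 CPM and 467, 422 and 412 CPM) and far above means of 13.6 CPM in skeletal MNs and 7.05 CPM in cholinergic interneurons. A corrected count of *Zeb2* was present in 96.8% ± 4.1 of V9 nuclei (SD, n = 6 libraries) and in 9.86% ± 15.6 of skeletal MN nuclei, where single libraries ranged from 2.19 to 41.6%, at median totals of 9753 and 9081 corrected counts per nucleus. *Chat*, which makes acetylcholine, stood at 215 ± 25.5 against 219 ± 30.8 CPM in V9 and the other visceral MNs. *Fbn2*, a second visceral marker, was lower in V9 than in the other visceral MNs and is described with the matrix genes. *Fign*, another visceral marker, was at 163 ± 37.5 against 349 ± 49 CPM, and at 42.1 CPM in skeletal MNs. With *Nos1*, the 4 visceral markers summed to 764 to 1537 CPM in V9 and 1313 to 1657 CPM in the other visceral MNs. Interneurons had more *Nos1* than V9 (means of 408 and 227 CPM). The summed level of the 4 skeletal MN markers was 9.8 to 33.2 CPM in V9, with *Tns1* at 0 to 11.1 CPM against 376 CPM in skeletal MNs. The authors named the visceral clusters largely by *Zeb2* and took *Fbn2* and *Tns1* as class markers from the same nuclei. Contrasts between classes in these genes follow in part from that choice and are no independent check of identity. Summed astrocyte markers were at 5.61 to 12.8 CPM in V9 and 18.3 to 29 CPM in the other visceral MNs, with *Aqp4* and *Gja1* at 0 in every V9 library. Oligodendrocyte markers summed to 47.1 to 75.7 CPM in V9 and 45.9 to 57.5 CPM in the other visceral MNs, and microglial markers to 35.7 to 72.5 CPM in V9 and 24.8 to 81.2 CPM in the other visceral MNs, so these lists were not lower in V9.

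Libraries of the male pool stood apart in ways that touch the results below. Of the V9 nuclei in cervical replicate 2, 13 of 37 had counts of at least 2 of 4 interneuron markers, *Pax2*, *Mpped2* and *Ebf2* among them, compared with 1 V9 nucleus in all other libraries together. The summed level of the 4 markers was 178 CPM in that library, the highest of the 6, where the lowest was 12.9 CPM. Its V9 nuclei also had the highest median total, 16028 corrected counts against 7164 to 11297 in the other cervical and thoracic libraries. How far this depth raised the number of nuclei with markers was not tested. Among other visceral nuclei of all libraries, 145 of 5366 had counts of at least 2 of the markers, a number not split by library. Detection of single markers also varied between libraries outside V9. *Pax2* was present in 0.532 to 9.66% of other visceral and 1.88 to 27.7% of skeletal MN nuclei of a library. For *Mpped2* the ranges were 2.4 to 14.9% and 8.38 to 45.8%, so uneven detection of these markers was not particular to V9. In addition, the cervical and thoracic labels of replicate 2 went against positional genes measured outside V9. *Hoxc5*, a Hox gene of positional identity, stood in skeletal MNs at 16.1, 82.5 and 15.6 CPM in the cervical and 101, 9.44 and 94.5 CPM in the thoracic libraries. Of the Hox genes that separated the regions in replicates 1 and 3, 6 of 6 in skeletal MNs and 6 of 7 in interneurons went the opposite way in replicate 2. In other visceral MNs 1 of 2 did so, *Hoxc5*, while *Hoxc4* followed the labels. Over all genes separated in this manner the share was 34.2% in skeletal MNs and 51.8% in interneurons. Among visceral MNs, V5 made up 18.4, 1.19 and 20.6% of nuclei in the libraries labelled cervical and 1.74, 28.9 and 0.102% in those labelled thoracic. The labels were kept as given, and each comparison of cervical with thoracic nuclei is reported with and without replicate 2.

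V9 was found in the cervical and thoracic cord and was almost absent from the lumbar/sacral cord. It made up 3.62, 8.81 and 4.55% of visceral MN nuclei in the cervical libraries and 7.32, 6.47 and 6.23% in the thoracic libraries. In the lumbar/sacral libraries 1 of 673, 1 of 450 and 2 of 377 visceral nuclei were V9, which are shares of 0.149, 0.222 and 0.531%. Every lumbar/sacral share was thus below every cervical or thoracic share, as the plot of V9 shares by library shows, and the highest upper bound of a lumbar/sacral library was 1.91% (95% Wilson interval, which covers counting error only). The mean shares were 5.66% ± 2.77, 6.67% ± 0.571 and 0.3% ± 0.203 (SD, n = 3 each) and differed between regions in an exact permutation test over 1680 assignments (p = 0.0179, two-sided; the smallest p it allows is 0.00357). Permuting regions within each pool of mice gave an exact p of 0.0833 and did not pass (smallest p 0.0278 over 216 assignments), and neither did the share of all cholinergic nuclei (exact p = 0.0607). Without the V9 nuclei that had at least 2 interneuron markers the mean cervical share was 4.66% and the exact p was 0.00357. Thoracic exceeded cervical shares by 1.01 percentage points, less than the spread of the cervical libraries (exact permutation p = 0.5; 3 against 3 libraries cannot go below 0.1). Without replicate 2 the means were 4.08% cervical and 6.77% thoracic, both thoracic libraries lay above both cervical ones, and the difference was 2.69 points (exact permutation p = 0.333, the smallest that 2 against 2 libraries allow). Without the nuclei with at least 2 interneuron markers and with all 6 libraries it was 2.01 points (exact permutation p = 0.1). The 4 lumbar/sacral nuclei are too few for a summed profile, and the values below come from the 243 V9 nuclei of the 6 cervical and thoracic libraries.

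**Figure D1:**
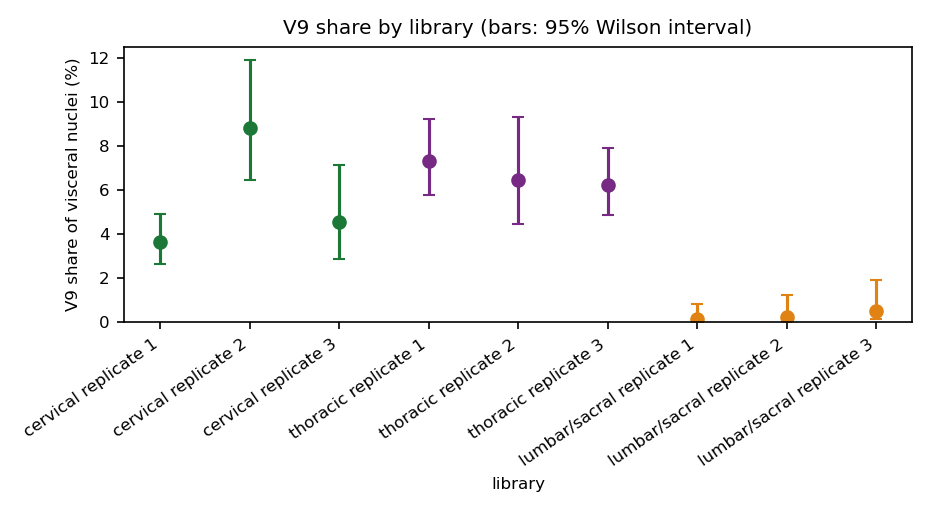
V9 nuclei as a percentage of visceral MN nuclei in each of the 9 libraries, with 95% Wilson intervals as bars and colour for the region. The 3 lumbar/sacral libraries lie below 1%, and the 6 cervical and thoracic libraries lie between 3.62 and 8.81%.

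To describe what set V9 apart, summed V9 nuclei were compared with the summed nuclei of all other visceral clusters in the same library. A gene was counted as higher or lower when the mean difference in log2(CPM + 5) was at least 1 and the sign was the same in all 6 libraries. Of 9963 genes kept, 79 were higher (0.793%) and 290 were lower (2.91%), and the median difference over all of them was -0.05. Because clusters were drawn from the same expression values, these differences describe V9 and carry no test. More lower than higher genes was also found for each of the other clusters when compared in the same way with the rest, with 90 to 143 higher and 166 to 391 lower genes. V9 therefore had the fewest higher genes of the 9 clusters compared. The median totals of V9 and other visceral nuclei within a library had ratios of 0.991 to 1.06. These are totals of corrected counts, whose SD over all cholinergic nuclei of a library was only 5.85 to 9.36% of the mean. The ratios therefore do not show whether raw depth was equal. At the limit of the rule lay, on the higher side, *Ifi27* with a difference of 1.01 just inside, and on the lower side *Gm13269* with -1 just inside and *AC124532.2* with -0.999 just outside.

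*Ndst4*, an enzyme that places sulfate groups on heparan sulfate chains (chr3:125404076-125728899, GRCm38), had the highest difference of the genes named. V9 held 1894, 3066 and 2406 CPM in the cervical and 3879, 1429.9 and 2863 CPM in the thoracic libraries, and the other visceral MNs held 302, 190.4 and 233 CPM and 226, 203 and 184 CPM in the same order. The lowest V9 library was several times above the highest of the other sums, and the mean difference in log2(CPM + 5) was 3.45 ± 0.63 (SD, n = 6 libraries). *Ndst4* counts were present in 93.2% ± 7.97 of V9 nuclei and 51.7% ± 7.7 of other visceral nuclei, or 92.6% ± 7.93 and 46.2% ± 4.14 when each nucleus was thinned to 7100 corrected counts. Many nuclei of other classes also carried the transcript, as 62.6% ± 4.33 of interneuron nuclei did, so V9 stood out by level. The next cluster was V10 at 512 CPM.

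*Cntnap5c*, of the contactin-associated protein family, was measured at 1035, 1209 and 1172 CPM in the cervical and 1521, 724 and 1044 CPM in the thoracic libraries, against 239, 199 and 237 CPM and 247, 134 and 180.5 CPM in the other visceral MNs, a difference of 2.41 ± 0.19. The V9 values lay above the other values without overlap, as they did for 15 of the 15 most raised named genes. These genes were chosen for large differences of one sign, which favours such a separation. It was not counted over all genes kept. *Hmcn1*, which encodes the matrix protein hemicentin (chr1:150562524-150993435), differed by 1.95 ± 0.71 (737 ± 208 against 187 ± 50.7 CPM, mean ± SD), and V10 came near V9 with 644 CPM. The protocadherin *Pcdh11x* differed by 1.77 ± 0.68 and the cadherin *Cdh6* by 1.59 ± 0.25, although *Cdh6* was as high in V4 (877 CPM). *Chodl*, a membrane lectin known from fast motor neurons, was likewise shared with V4 (79.9 and 107 CPM). *Sgcz*, a sarcoglycan, reached 3360.3 ± 1046 against 1106 ± 187 CPM but was higher still in skeletal MNs (6441 CPM).

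*Kcnab1*, a cytoplasmic beta subunit of voltage-gated potassium channels (chr3:65109384-65378223), stood at 888, 603 and 852 CPM in the cervical and 836, 479 and 715 CPM in the thoracic libraries and at 178, 154 and 151 CPM and 203, 125 and 145 CPM in the other visceral MNs. No library overlapped, the difference was 2.14 ± 0.22, and counts were present in 98.9% ± 1.7 of V9 nuclei against 53.4% ± 7.18 of other visceral nuclei. *Ryr3*, a ryanodine receptor that releases calcium from internal stores, differed by 1.79 ± 0.17 (576 ± 184 against 163 ± 51.1 CPM), but was higher still in skeletal MNs (1218 CPM). *Aldh1a1*, which makes retinoic acid from retinaldehyde (chr19:20492715-20643465), was measured at 206, 136 and 202 CPM in the cervical and 284, 167 and 167 CPM in the thoracic libraries. The other visceral MNs had 68.8, 33.2 and 52 CPM and 35.3, 35.6 and 33.9 CPM of it, a difference of 2.06 ± 0.44, and in skeletal MNs the mean was 3.73 CPM. *Lypd6*, a small membrane-anchored protein that modulates nicotinic receptors, differed by 1.69 ± 0.33, the kinase *Cdk14* by 1.71 ± 0.21 and the kinase activator *Mob3b* by 1.87 ± 0.38. V6 came near V9 in *Lypd6* (107 against 111 CPM). The zinc finger genes *Zfp536* and *Zfp804b* differed by 1.95 ± 0.31 and 1.79 ± 0.91. *Zfp804b* was higher again in V6 (4609 against 4233 CPM). V9 had the highest mean of all 9 visceral clusters for 12 of the 15 genes and for 58 of the 79. The rule for higher genes favours this rank, which was not counted over all genes kept.

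**Figure D2:**
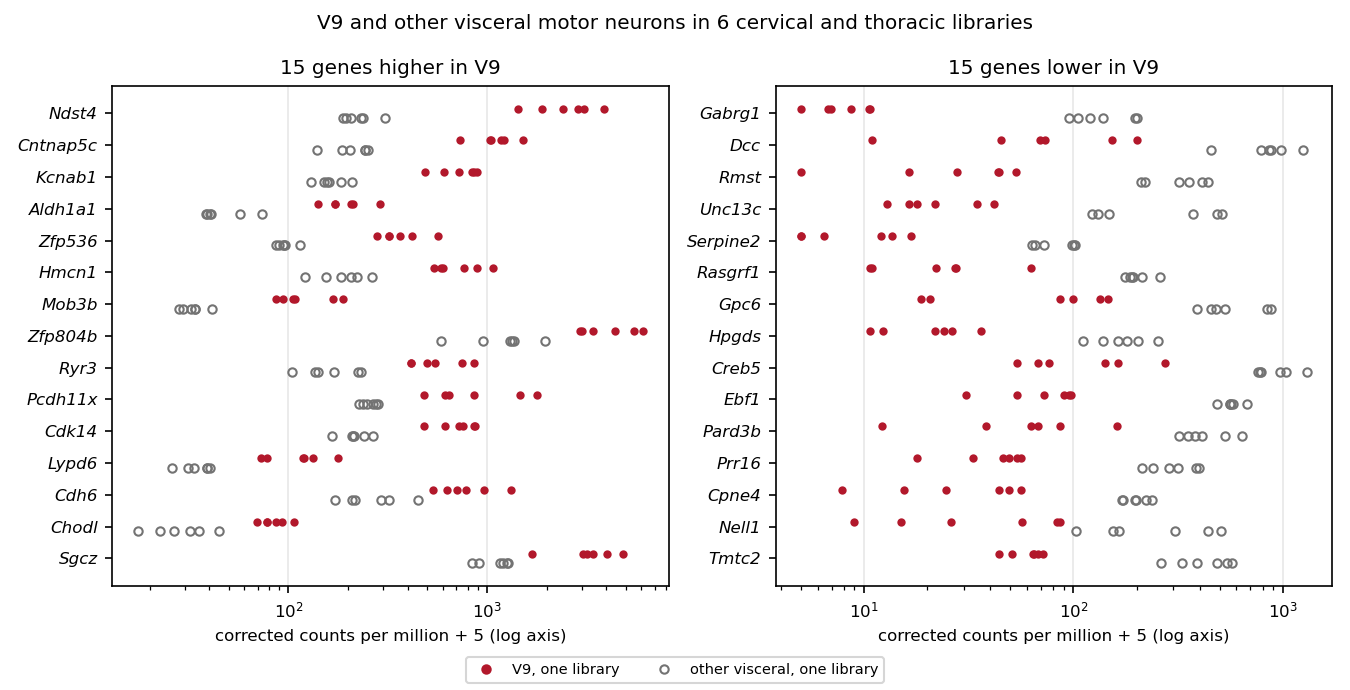
Corrected counts per 1000000 (CPM) plus 5, on log axes, for the 15 most raised and the 15 most reduced named genes, with 1 filled point per library for V9 and 1 open point per library for the other visceral MNs. V9 points do not overlap the open points for any of the 30 genes, and *Ndst4* (1429.9 to 3879 CPM in V9) and *Gabrg1* (0 to 5.71 CPM) head the lists. The genes were chosen for large differences of one sign, which favours this separation.

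Among genes that were lower, *Gabrg1*, the gamma 1 subunit of the GABA-A receptor (chr5:70751047-70842617), was nearly absent from V9. V9 held 3.68, 1.75 and 5.61 CPM in the cervical and 5.71, 0 and 1.96 CPM in the thoracic libraries, where the other visceral MNs held 195, 89.7 and 193 CPM and 100.5, 133 and 115 CPM, and the mean difference was -4.13 ± 0.53. V4 lacked it as well (2.89 CPM), and V10 had the most (473 CPM). *Dcc*, a netrin receptor that steers axons, was measured at 147, 68.2 and 196 CPM in the cervical and 40, 64.2 and 5.88 CPM in the thoracic libraries. The other visceral MNs had 851, 873 and 969 CPM and 1246, 448 and 783 CPM, so V9 lay below them in every library, and the mean difference was -3.67 ± 1.54. V7 had the highest mean of *Dcc* with 4109 CPM, while V1 was near V9 (75.9 CPM). *Unc13c*, which primes synaptic vesicles, differed by -3.47 ± 0.92, the noncoding RNA *Rmst* by -3.66 ± 1.02 and the Ras activator *Rasgrf1* by -3.18 ± 0.87. For *Unc13c* and *Rasgrf1*, which interneurons express at 686 and 340.2 CPM, the share of V9 nuclei with a count reached, in the highest library, 35.1 and 37.8%, against means of 11.7 and 12%. *Hpgds*, a prostaglandin D synthase, was at 5.71 to 31.4 CPM in V9 and 106 to 248 CPM in the others. The protease inhibitor *Serpine2* was at 0 to 11.8 and 58.7 to 97.2 CPM, and the glypican *Gpc6* at 13.7 to 142 and 382 to 871 CPM. The remaining named genes were *Pard3b*, *Prr16*, *Cpne4*, *Nell1* and *Tmtc2*, which differed by -2.95 to -2.79. For 14 of the 15 genes at most 1 other cluster lay below V9, and for 124 of the 290 none did. The rule for lower genes favours such ranks, which were not counted over all genes kept. Compared directly by the same rule, however, 6 of the 15 were lower than V4, 6 than V6 and 10 than V2, the nearest clusters. Low levels of the remaining genes were thus not particular to V9.

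Of the genes of cholinergic transmission kept, only the choline transporter differed between V9 and the other visceral MNs by this rule. Over all genes kept 0.793% were higher and 2.91% lower, the shares that stand beside every list of this paragraph. Of the 7 genes of cholinergic transmission that passed the filter on low values, 0 were higher and 1 was lower, with a median difference of -0.03. The lower gene was *Slc5a7*, the choline transporter of cholinergic endings (chr17:54273590-54299034). It stood at 151, 143 and 151 CPM in the cervical and 149, 209.8 and 147 CPM in the thoracic libraries and at 462, 352 and 404 CPM and 383, 511 and 302 CPM in the other visceral MNs. Every V9 value was below every other value, the mean difference was -1.31 ± 0.19, and V9 was the lowest of the 9 clusters. With nuclei thinned to an equal total, 58.1% ± 9.82 of V9 and 89.4% ± 3.2 of other visceral nuclei had a count of it. *Nos1* did not follow this pattern: V9 had 173, 133 and 325 CPM in the cervical and 216, 355 and 159 CPM in the thoracic libraries, the difference was -0.09 ± 0.54, and the signs were mixed. In the nitric oxide and cGMP list 1 of 11 genes kept was higher (*Pde9a*, a cGMP phosphodiesterase) and 2 were lower, *Pde1c* (-1.29 ± 0.76) and *Pde10a* (-1.04 ± 0.28), 2 further phosphodiesterases, of which *Pde10a* left the rule without replicate 1 (-0.898). Of 14 neuropeptide and granin genes kept, 0 were higher and 3 were lower: *Cartpt*, which encodes the CART peptides, the granin *Scg2* (-1.22 ± 0.90) and the prohormone convertase *Pcsk1* (-1.27 ± 0.37). *Sst* and *Penk*, the precursors of somatostatin and enkephalin, lay under the filter in V9.

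Receptor genes are given beside the shares over all genes kept, 0.793% higher and 2.91% lower. In the list of GABA and glycine receptors 6 of 18 genes kept were lower and 0 higher, with a median difference of -0.77. Besides *Gabrg1* they included *Gabra2* (-2.36 ± 0.60), *Gabra4*, *Gabrg3* (-2.66 ± 1.12) and the glycine receptor *Glra2* (-1.52 ± 0.66). *Gabrg3* was at 98.5 to 329.9 CPM in V9 and at 731 to 2184 CPM in the others, where V10 had a mean of 3557 CPM and V4 of 127 CPM. Of 9 amine receptors kept 4 were lower and 0 higher, with a median of -1.47. Among them the serotonin receptors *Htr2c* (236, 281 and 151 CPM in the cervical and 297, 116 and 433 CPM in the thoracic libraries) and *Htr2a* differed by -2.07 ± 0.89 and -1.92 ± 0.52. *Htr2c* was at 1432, 814 and 1279 CPM and 931, 889 and 756 CPM in the other visceral MNs, above V9 in every library. The remaining members were the adrenergic receptor *Adra1b* and the histamine receptor *Hrh1*. The muscarinic receptor *Chrm3* was lower by the same rule (-1.60 ± 0.49), 1 of 3 acetylcholine receptors kept, and *Trhr* and *Qrfpr* (-1.11 ± 0.66) were lower among 14 peptide receptors. *Qrfpr* left the rule without replicate 1 (-0.711) and with nuclei thinned to an equal total (-0.979). Glutamate receptors went both ways, with 3 higher and 4 lower of 23 and a median of 3.8e-04. *Grin2c*, an NMDA receptor subunit, differed by 1.46 ± 0.18, and the metabotropic receptor *Grm4* was also on the higher side. The lower side included the kainate receptor *Grik1* (-2.41 ± 1.37), *Grid1* (-1.64 ± 0.39) and the metabotropic receptor *Grm7* (-1.67 ± 0.92).

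Most ion channel genes did not differ by this rule, and the shares over all genes kept were 0.793% higher and 2.91% lower. Of 47 potassium channel genes kept, 1 was higher, *Kcnab1*, and 4 were lower: *Kcnk2*, *Kcnk9*, *Kcnk12* and *Kcnq3*. *Kcnq3*, a subunit of the M-current channel, was at 408 to 824 CPM in V9 and 1030.3 to 1867 CPM in the others (-1.25 ± 0.12). Among 29 sodium, calcium and HCN channel genes only *Cacna1h*, a T-type calcium channel, and the calcium channel beta subunit *Cacnb2* (-2.08 ± 0.52) differed, both lower. *Piezo2*, a mechanically gated channel, had 14.7, 0 and 0 CPM in the cervical and 0, 0 and 5.88 CPM in the thoracic libraries, and the other visceral MNs had 28.1 to 97.1 CPM. It was listed at 0 in 4 of the 6 V9 libraries and was close to absent from V6 as well (3.65 CPM), and V5 had the most (229 CPM). *Trpc4*, a cation channel of the TRPC family, was the other lower gene of 11 in that list (-1.34 ± 0.50).

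Among transcription factors 1 of 46 genes kept was higher and 10 were lower (0.793% and 2.91% over all genes kept), with a median of -0.33. The higher one was *Nr2f1*, an orphan nuclear receptor. *Isl1*, which specifies motor neurons in the embryo, was listed at 0 in all 6 V9 sums and at 6.46 to 33.9 CPM in the other visceral MNs. It was close to absent from V6 as well (0.817 CPM), while V4 and V2 had 40.1 and 72.2 CPM. These are low levels, and *Isl1* left the rule with a pseudocount of 20 (-0.877). A count of 0 in 243 V9 nuclei allows a share of up to 1.23% of nuclei with a count, over pooled libraries and for counting error only. It does not limit the share of nuclei that express the gene at a low level. In other visceral MNs 12.6% ± 8.07 of nuclei had a count. The other lower genes were *Ebf1* (-3.06 ± 0.54), *Creb5* (-3.06 ± 0.61), *Tshz2* (-2.63 ± 0.49), *Meis2* (-2.02 ± 0.95), *Nfia* (-1.87 ± 0.89), *Nfib* (-1.85 ± 0.60), *Tshz1*, *Rorb* and *Etv1*. *Ebf1* was at 25.7 to 92.6 CPM in V9 and 482 to 668 CPM in the others, and V4 and V6 were as low (79.6 and 70.1 CPM). *Creb5* was at 48.6 to 269 CPM in V9 and 754 to 1294 CPM in the others. *Foxp1* and *Tox*, which were neither higher nor lower by this rule (-0.18 ± 1.11 and 0.29 ± 2.39), varied widely among V9 libraries and are taken up below. Of the Hox genes only 2 of 39 listed passed the filter, and neither differed.

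Genes for cell contacts split by family. Each list of this paragraph stands beside 0.793% higher and 2.91% lower over all genes kept. Cadherins and protocadherins were the list with the most genes on the higher side, 7 of 23 kept, with 4 lower and a median of 0.20. The higher members were *Cdh6*, *Cdh12*, *Cdh18*, *Pcdh7*, *Pcdh9* (1.38 ± 0.48), *Pcdh11x* and *Pcdh19* (1.52 ± 0.51). *Pcdh9* was abundant at 10540.4, 9386 and 7464 CPM in the cervical and 16689.5, 4354 and 9317 CPM in the thoracic libraries against 4014, 3163 and 4158 CPM and 4144, 2516 and 2885 CPM in the other visceral MNs. On the lower side were *Cdh8*, *Cdh11* (-2.69 ± 0.48), *Fat3* (-1.77 ± 0.97) and *Fat4*. Of 39 synaptic adhesion genes, *Cntnap5c* and *Cntn4* (1.22 ± 0.16) were higher, and *Tenm2* (-2.50 ± 0.56), *Lrrc4c*, *Ptprk* and *Sdk1* (-1.69 ± 0.18) were lower. Of 39 guidance genes 3 were higher (*Sema3d*, *Sema5a* and *Epha7*) and 8 were lower, among them *Dcc*, the netrin receptor *Unc5c* (-1.23 ± 0.48), *Sema3c* (-1.42 ± 0.64) and *Efna5* (-1.42 ± 0.83). *Sema5a* depended on the library, with 140.0, 19.2 and 308 CPM in the cervical and 51.4, 133 and 66.6 CPM in the thoracic libraries, and its difference of 1.15 ± 0.58 was 0.923 without replicate 3, under the rule. The list of matrix and proteoglycan genes had 0 higher and 11 lower of 32, with a median of -0.64. *Fbn2*, the fibrillin used as a marker of visceral MNs, was at 73.7, 64.7 and 146 CPM in the cervical and 104, 89.9 and 86.2 CPM in the thoracic libraries in V9 and at 415, 448 and 466 CPM and 614, 338 and 424 CPM in the others, a difference of -2.22 ± 0.40. It was nevertheless present in 51.4% ± 10.4 of V9 nuclei, compared with 16.1% ± 13.9 of skeletal MN nuclei, and only V6 had a lower mean (75.2 CPM). *Postn*, a secreted matrix protein, was at 0 to 7.37 CPM in V9, and *Reln*, the secreted protein reelin, at 0 to 22.4 CPM, against 49.4 to 117 and 15.4 to 101 CPM. In V4, V6 and V2 the means were also low, at 2.37, 2.8 and 13.8 CPM for *Postn* and 14.2, 27 and 18.1 CPM for *Reln*. Directly against these clusters, only *Reln* against V6 passed the rule. The growth factor list had 0 higher and 6 lower of 28 genes, with the neuregulin receptor *Erbb4* (-2.68 ± 0.89), *Fgf13* (-1.45 ± 0.42) and the neurotrophin receptor *Ntrk3* (-1.18 ± 0.54) as the named members. *Erbb4* was low in V4, V6 and V2 as well (23.1, 11.6 and 14.9 CPM, against 11.2 CPM in V9). In the list of immediate early genes 1 of 4 was lower (*Nr4a1*), and of 24 motor neuron disease genes *Erbb4* alone was lower.

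The visceral clusters nearest to V9, by the root mean square difference of mean log2(CPM + 5) over the 9963 genes, were V4 (0.41), V6 (0.50) and V2 (0.51), and V7 was the farthest (0.64). V8 had under 10 nuclei in every cervical and thoracic library and was not compared. Directly against V4, 118 genes were higher (1.19%) and 172 lower (1.73%) in V9 by the same rule. *Hmcn1* separated the pair most among the named genes, at 737 CPM in V9 and 19.5 CPM in V4 (4.96 ± 0.38). *Sgcz* (4.32 ± 1.14), *Zfp804b* (3.59 ± 0.80), *Cntnap5c* (2.96 ± 1.18), *Ndst4* (2.41 ± 0.94) and *Nos1* (1.28 ± 0.85) were higher as well. *Kcnab1*, *Aldh1a1*, *Mob3b*, *Cdh6* and *Chodl* were not, so 10 of the 15 most raised genes also passed the rule against V4. V4 instead had more *Isl1* (40.1 CPM), *Fbn2* (-2.40 ± 0.25 for V9 minus V4), *Piezo2* (-3.43 ± 0.98), *Ccbe1*, a secreted lymphangiogenic factor (-2.44 ± 0.56), and *Ntng1*, a membrane-anchored netrin (-3.23 ± 1.67). Against V6, 212 genes were higher (2.13%) and 225 lower (2.26%), and against V2, 162 were higher (1.61%) and 259 lower (2.58%). Of all genes kept, 23 were higher in V9 than in each of V4, V6 and V2.

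**Figure D3:**
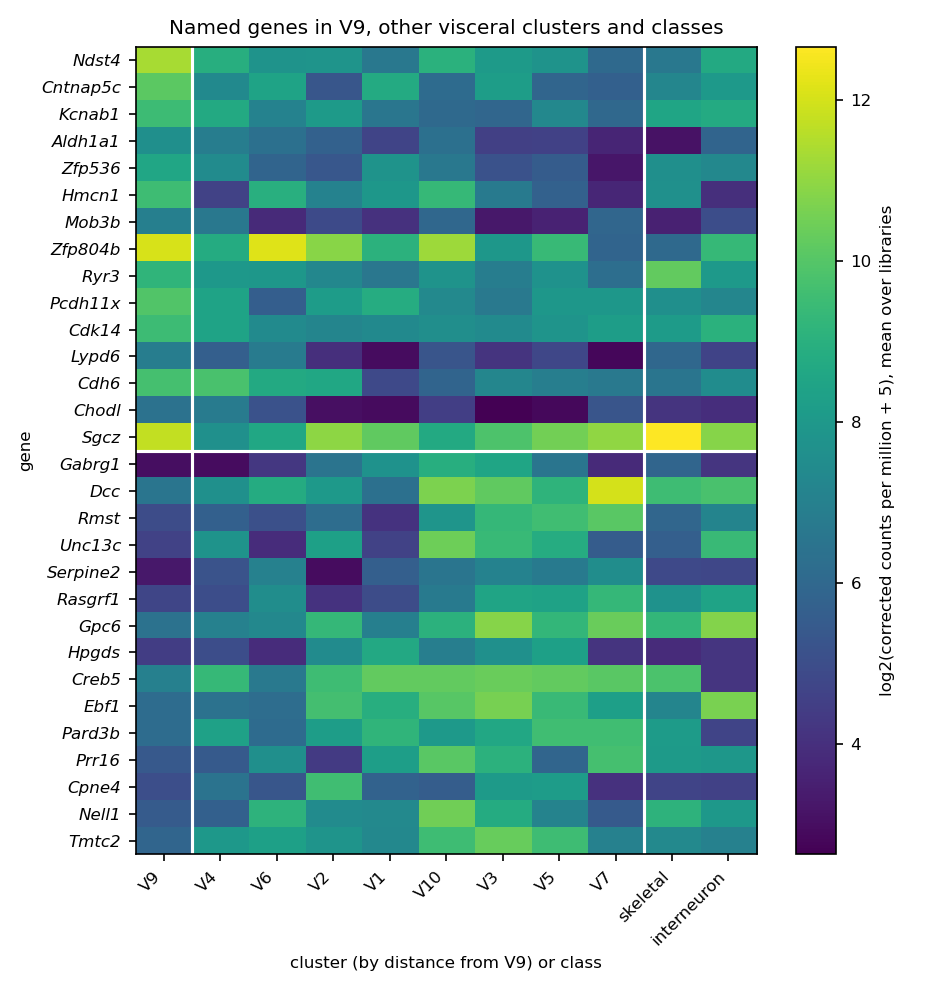
Mean log2(CPM + 5) over libraries of the 30 named genes (rows; raised genes above the white line, reduced genes below it) in V9, in 8 other visceral clusters ordered by distance from V9, and in skeletal MNs and interneurons. *Ndst4* is brightest in V9, whereas *Cdh6* and *Chodl* are shared with V4 and low *Ebf1* is shared with V4 and V6.

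The genes that set V9 apart were long. Gene spans in GENCODE vM21 had a median of 178 kb for the higher genes with a span (77 of 79) and 153 kb for the lower genes (288 of 290), compared with 35.5 kb for all genes kept. Spans over 200 kb made up 41.6 and 40.3% of the 2 groups and 9.19% of all genes kept. Nuclear reads were counted over whole pre-mRNAs, introns included, so a long gene can gather more counts, and the part of this in the result was not tested.

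Within V9, nuclei were next compared between the cervical and thoracic cord, since V9 was chosen by its cluster name and not by region. The authors state that each region was normalized with SCTransform on its own, and that regions were then joined before clustering. Region therefore entered the correction and the clustering. Its part in the differences below was not tested. With all 6 libraries, limma called 0 of 9418 genes at an adjusted p under 0.05 (0%; 364 had an unadjusted p under 0.05), and with the pool of mice as a block it also called 0 (511 under 0.05). Without the libraries of replicate 2 the fit of 2 against 2 libraries called 54 of 8404 genes (0.643%), 49 higher in cervical (0.583%) and 5 higher in thoracic V9 (0.0595%). With the block, which leaves 1 residual degree of freedom, 214 genes were called, among them all 54. Leaving out replicate 2 was an alternative set from the labels, and its use for naming genes was decided after the values were seen.

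*Arhgap24*, which inactivates Rac (chr5:102481391-102897937), was measured at 508, 78.7 and 667 CPM in the cervical and 17.1, 291 and 15.7 CPM in the thoracic libraries. Replicates 1 and 3 were high in cervical and low in thoracic cord, and the libraries labelled replicate 2 were ordered the other way. The difference, thoracic minus cervical and without replicate 2, was -4.78 ± 0.27 (SE; adjusted p = 1.2e-05) on the log2 scale. *Grm8*, a metabotropic glutamate receptor (chr6:27275119-28135178), gave 1739, 376 and 1570.3 CPM in the cervical and 134, 587 and 133 CPM in the thoracic libraries, a difference of -3.58 ± 0.22 (SE; adjusted p = 2.2e-05). *Foxp1*, a transcription factor that directs motor column identity in the embryo (chr6:98925338-99522721), gave 483, 150.3 and 617 CPM in the cervical and 104, 381 and 76.4 CPM in the thoracic libraries, a difference of -2.55 ± 0.25 (SE; adjusted p = 9.1e-04). In both genes the cervical values of replicates 1 and 3 were several times the thoracic ones, and replicate 2 fell between them with the order of regions turned. The other genes among the 10 with the smallest p on this side included *Gm30382*, an unnamed gene model, the phosphatase *Inpp4b*, the cadherin *Cdh9*, the scaffold gene *Frmpd4*, the receptor phosphatase *Ptprt* and *Ntng1*. They differed by -4.73 to -2.34, and *Ntng1* stood at 361, 101 and 549.6 CPM in the cervical and 21.4, 505 and 45.1 CPM in the thoracic libraries.

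On the thoracic side *Foxp2*, the relative of *Foxp1* (chr6:14901349-15441977), was measured at 62.6, 184 and 78.5 CPM in the cervical and 373, 51.4 and 327 CPM in the thoracic libraries, a difference of 2.24 ± 0.25 (SE; adjusted p = 0.00178). *Efna5*, an ephrin ligand of Eph receptors, gave 173, 389.8 and 146 CPM in the cervical and 764, 77.1 and 564 CPM in the thoracic libraries, a difference of 2.01 ± 0.24 (SE; adjusted p = 0.00345). For both genes the thoracic values of replicates 1 and 3 were high and all others lower, with cervical replicate 2 in between and thoracic replicate 2 the lowest. *Galntl6*, of the O-glycosyltransferase family (1.97 ± 0.36, adjusted p = 0.0396), the noncoding RNA *Neat1* (1.99 ± 0.37, adjusted p = 0.0396) and *AC129186.1* (1.72 ± 0.31, adjusted p = 0.0337), an unnamed gene, completed the 5, and *Galntl6* was no longer called under median-of-ratios scaling (adjusted p = 0.0574). By the gene lists, and beside 0.583% cervical higher and 0.0595% thoracic higher over all genes tested, 6 of 35 synaptic adhesion genes tested were higher in cervical V9 (*Cntn5*, *Cntnap4*, *Nxph1*, *Opcml*, *Ntm* and *Ptprt*), as were 4 of 22 glutamate receptors (*Grin3a*, *Grid1* and *Grm8* among them) and 3 of 23 growth factor genes (*Gfra1*, *Ntrk3* and *Alk*). Of the cholinergic, GABA receptor and amine receptor lists 0 genes were called.

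**Figure D4:**
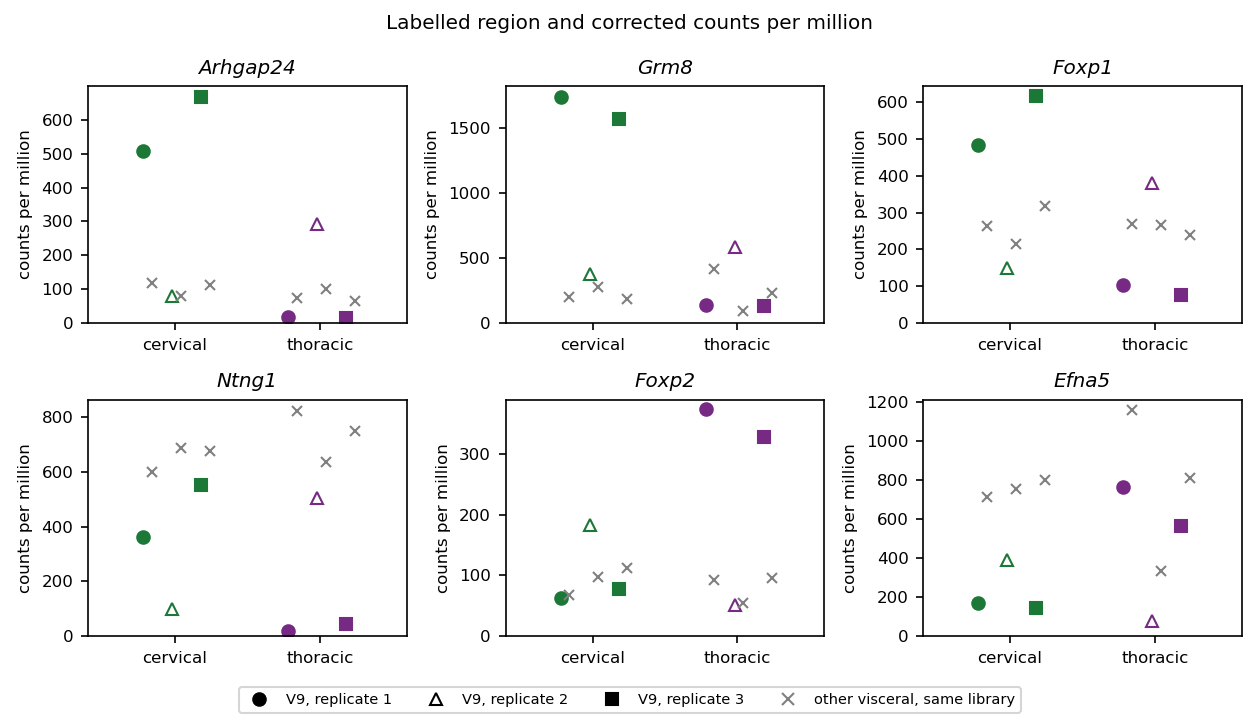
Corrected counts per 1000000 of 6 genes in V9 by labelled region, with a filled circle for replicate 1, an open triangle for replicate 2 and a filled square for replicate 3, and a cross for the other visceral MNs of the same library. Replicates 1 and 3 separate the regions in V9 and replicate 2 runs the opposite way. The crosses of *Arhgap24* and *Foxp1* lie closer together than the V9 points.

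The shift was not seen to the same extent in other visceral MNs of the same libraries. There the fit without replicate 2 called 4 of 8512 genes (0.047%), and 0 of them were among the 54. The difference between both was tested with limma on the within-library difference of V9 and other visceral MNs. It called 163 of 8991 genes (1.81%), 43 of the 54 included. Because the 54 were chosen by V9 values that also enter this difference, the 43 are a description and no independent check. For *Foxp1* this difference was -2.35 ± 0.19 (SE; adjusted p = 2.9e-06), and the other visceral MNs alone moved by -0.19. With all 6 libraries the same test called 0 of 9963 genes (405 with an unadjusted p under 0.05).

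The 54 genes were called only once replicate 2 was left out, with its values known, so its direction for them is a description and no independent check. In its libraries 49 of the 54 (90.7%) differed in the direction opposite to their labels, compared with 48.7% of all 8404 genes tested. The 49 genes higher in cervical V9 had a median of -2.01 in replicates 1 and 3 and of 0.89 in replicate 2. The 5 genes higher in thoracic V9 had medians of 1.99 and -2.27.

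V9 nuclei also differed from one another within a library. Corrected counts in the 49 genes made up a median of 3.42, 0.914 and 3.16% of a nucleus in the cervical and 0.902, 2.11 and 0.676% in the thoracic libraries. The genes were chosen on replicates 1 and 3, so the order of regions in those replicates follows from the choice. In cervical replicate 1 the lower and upper quartile of nuclei were 1.49 and 4.51%, and in thoracic replicate 3 0.555 and 0.792%, so nuclei of the former library were spread over a wider range. Cervical replicate 1 also had the higher median and the lowest V9 median total (7164 corrected counts), and their part in the spread was not tested. In cervical replicate 2 the 24 nuclei with fewer than 2 interneuron markers had a median of 0.681%, below the 2.11% of thoracic replicate 2. *Foxp1* was found in 35, 29 and 17 of 39, 37 and 17 cervical V9 nuclei and in 43, 23 and 29 of 63, 26 and 61 thoracic ones. *Tox*, a transcription factor of the HMG-box family (chr4:6686353-6991557), was found in 9, 22 and 1 and 47, 2 and 44 of the same nuclei. The transcripts were not exclusive of each other: 32 of 63 nuclei of thoracic replicate 1 had both, 11 had *Foxp1* only and 15 *Tox* only. In cervical replicate 3, 16 of 17 nuclei had *Foxp1* only. *Tox* itself was not called by limma, with an adjusted p of 0.959 over all 6 libraries and of 0.0534 without replicate 2.

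**Figure D5:**
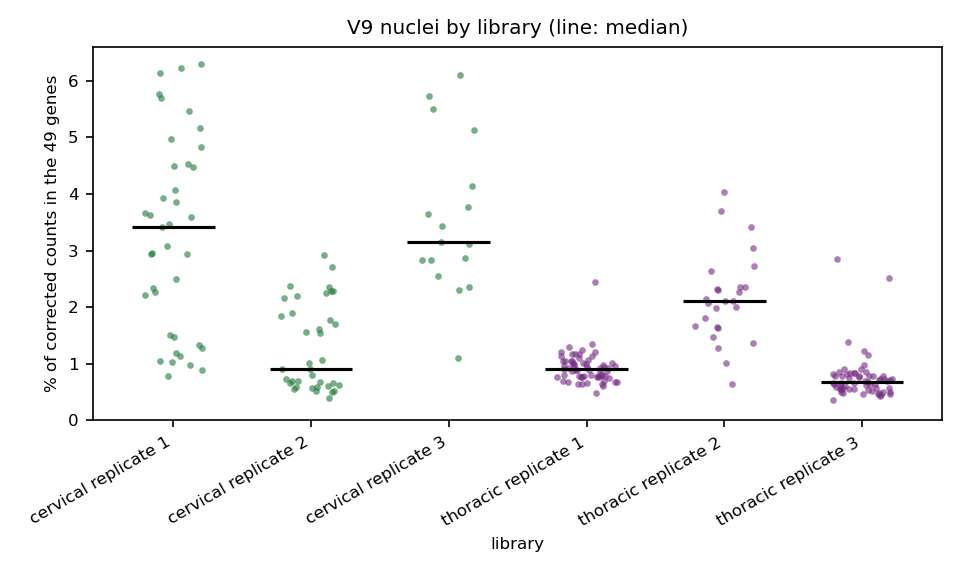
Percentage of a nucleus's corrected counts that fell in the 49 genes higher in cervical V9, 1 point per V9 nucleus of 6 libraries, with a line at the median; the genes were chosen on replicates 1 and 3. Cervical replicates 1 and 3 have medians of 3.42 and 3.16%, thoracic replicates 1 and 3 of 0.902 and 0.676%, and thoracic replicate 2 (2.11%) lies above cervical replicate 2 (0.914%).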

How the data were processed

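The authors sorted GFP+ nuclei from each region, made 10x Chromium libraries, counted reads over whole genes (mm10 build, GRCm38) in Cell Ranger 3.1.0 and normalized them in Seurat. The deposited matrix of 21457 features in 16042 nuclei held whole numbers, which are SCTransform-corrected counts and are handled as a model score rather than raw counts. Count tests were therefore not used. Cluster names came from the deposited annotation.

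Corrected counts of V9 nuclei were summed per library and scaled to 1000000 (CPM). V9 sums held 178314 to 700140 corrected counts, and V9 nuclei had median totals of 7164 to 16028. A gene was kept if 3 or more sums reached 10 CPM, and a pseudocount of 5 was added before log2. V9 was compared with the other visceral clusters by within-library differences with no test. Cervical and thoracic V9 were compared with limma 3.58.1 (R 4.3.3; trended variance, Benjamini-Hochberg adjustment). The scripts were tested on simulated data. Shares were tested by exact permutation. Libraries of one replicate number came from the same pool of mice, which pairs them. The deviations of such libraries correlated at 0.325, 0.0885 and -0.0284 over 9418 genes. Animals were pooled, so p-values measure the spread between pools.

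The members, gene lists and tests were chosen with earlier results of these data known. Named genes were the 15 with the highest and the 15 with the lowest mean difference at 50 CPM or more in every library of the higher group (gene models without a name left out), up to 6 genes of each list, the 10 with the smallest p in either direction between regions, and a fixed set of class markers and genes that name clusters. *Slc18a3* was not analysed here, and some genes that met these rules are not reported here. Scrublet, run in scanpy 1.11.5 per library, called 164 of 16042 nuclei doublets, 4 of them V9. V9 had 0 cell barcodes shared between libraries within the cluster, and 1 V9 barcode recurred in another library, as did the barcodes of 66 cholinergic nuclei in all. No fit was made for lumbar/sacral V9 (4 nuclei) or for the male against the female pool, where 1 residual degree of freedom would remain and a minimum of 2 had been set. Positions and spans were taken from GENCODE vM21, which uses the same build. Other steps ran in Python 3.11.15 (scipy 1.17.1, pandas 2.3.3, numpy 2.4.6, matplotlib 3.10.9).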

Additional observations from a re-analysis of the deposited data

Results flagged for a closer look

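The cervical against thoracic difference of V9 departed from that of the other visceral MNs of the same libraries for 13 of the genes named between regions, by limma on the within-library differences without replicate 2 (2 against 2 libraries). On the log2 scale, thoracic minus cervical, the difference of differences was -4.64 for *Gm30382*, -4.51 for *Cdh9*, -4.24 for *Grm8*, -4.07 for *Arhgap24*, -3.93 for *Ntng1* and -3.73 for *Frmpd4*. It was -2.63 for *Inpp4b*, -2.35 for *Foxp1* and -1.04 for *Ptprt*, each lower in thoracic V9. In the other direction it was 2.13 for *Foxp2*, 1.66 for *Efna5*, 1.51 for *Neat1* and 1.21 for *Galntl6*. The highest adjusted p of the 13 was 0.0492, for *Neat1*. *AC129186.1*, also named between regions, did not pass the same limma test (0.256, adjusted p = 0.771). The other visceral MNs moved by 1.46 for it. All these genes were chosen by V9 values that also enter the test, so passing it is no independent check. With all 6 libraries 0 genes passed this test.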

How the results depend on the processing

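With replicate 2 set aside, 2 libraries a side remained, and only corrected counts, not raw read depth, were used. For V9 against other visceral MNs, the counts of 79 higher and 290 lower genes became 51 and 151 with a pseudocount of 20, and a filter of 10 corrected counts in every sum, which tests 2830 genes, left 60 lower genes. Leaving out one replicate gave 81 to 95 higher and 283 to 296 lower genes, and at least 93.7% of the 79 stayed higher. The other alternatives (pseudocount 1, no filter, median-of-ratios scaling, equal cluster weights, no doublets, thinning to 7100 counts, and no nuclei with at least 2 interneuron markers, the last chosen after seeing the data) gave 74 to 109 and 283 to 370 genes. Of 1037 values of named genes under these alternatives, no gene counted as higher or lower turned sign and 11 values left the rule: those of *Pcsk1*, *Scg2*, *Qrfpr*, *Isl1*, *Gpc3* and *Sema5a* with a pseudocount of 20, of *Scg2* and *Qrfpr* after thinning, of *Pde10a* and *Qrfpr* without replicate 1 and of *Sema5a* without replicate 3.

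The gap in V9 share between the cervical and thoracic mean and the lumbar/sacral cord was 5.86 percentage points. It was 2.74 points as a share of all cholinergic nuclei (exact p = 0.0607), and with the replicate block, which keeps the pairing by pool, 5.86 points had an exact p of 0.0833. Without one replicate it ranged from 5.09 to 6.37 points (exact p = 0.0667 to 0.2, where 0.0667 is the smallest p possible).

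For cervical against thoracic V9, leaving out one replicate gave 0 to 54 calls and the replicate block 0. Without replicate 2, chosen for naming genes after seeing the data, 48 to 74 genes were called under other pseudocounts, median-of-ratios scaling and without nuclei with at least 2 interneuron markers, 214 with the replicate block (1 residual degree of freedom), and 0 with all 6 libraries. Leaving out the 1 such nucleus of cervical replicate 1 moved the count from 54 to 70. Relative to other visceral MNs, 0 genes were called with all libraries and 163 without replicate 2. Fits with lumbar/sacral V9 were not run, for lack of nuclei. The fit for sex, which would leave 1 residual degree of freedom, was not run because at least 2 had been set as the minimum for it.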
